A study of Mus musculus with 2 samples.

Results

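The regions described here are 3′ UTR stretches bound by Ago2 in mouse embryonic stem cells that hold none of the seed matches in the authors' list of 50 seed sequences. They were taken from the authors' list of 6211 enriched clusters. A cluster was kept when it was annotated as 3′ UTR, did not cross a splice junction, was at most 200 nt wide and overlapped on its own strand, by 1 nt or more, no listed 6mer, 7mer or 8mer match. Of 3806 clusters annotated as 3′ UTR, 0 crossed a junction and 2 were wider than 200 nt, which left 3804. Among these, 1097 held no listed match (28.8%, 95% exact binomial interval 27.4 to 30.3) and are called unmatched clusters, and the other 2707 are called matched clusters. Beyond the authors' enrichment threshold, which every listed cluster passed, and the width limit, reads, enrichment and crosslinks had no part in this choice. Expression may have entered indirectly through the authors' table of matches, since a cluster in a gene without entries there counts as unmatched.

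Both samples were clonal lines of embryonic stem cells, so each group was 1 clone and 1 library and no spread between replicates could be measured. The line TT-FHAgo2 carried human Ago2 with a FLAG-HA tag, and the line TT-Ago2 carried the same protein without a tag. Both were kept in 0.1 μg/mL doxycycline and induced with 2.5 μg/mL for 24 h, and per the series description the transgene was their only Argonaute. Both went through serial FLAG and HA precipitation after crosslinking, so the untagged line gives the background of the method. The tagged library held 789000 reads, and what is known of the untagged one comes from the enrichment given for each cluster. The site table gives expression in FPKM (fragments per kilobase of transcript, scaled to library size), with 0.1 FPKM as the authors' minimum. The embryonic stem cell factors Pou5f1 and Nanog were listed at 609 and 295 FPKM. All 25 pluripotency factors had a median of 82.2 FPKM and ranged from 1.15 to 1655. For 8 markers of differentiated lineages the median was 0.585 FPKM and the range 0.121 to 40.1, with Tubb3 highest.

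Argonaute proteins carry microRNAs and hold target RNA mainly through pairing of the microRNA seed, bases 2 to 8, with a complementary stretch in the 3′ UTR. Ago2 can also be crosslinked to RNA without such a stretch, through shifted or partial seed pairing, through pairing of the 3′ part of a microRNA, or beside a site that lies just outside the mapped fragment. In iCLIP, reverse transcription tends to stop at the crosslinked base, and the read ends mark where the protein touched the RNA.

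The sequences that matter most here are those of the microRNAs whose matches lay just outside unmatched clusters, together with 2 whose matches are not in the list. Mature sequences are from RefSeq (GRCm38.p6), 5′ to 3′, with the seed in capitals.

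mmu-miR-294-3p: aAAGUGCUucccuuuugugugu

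mmu-miR-290a-3p: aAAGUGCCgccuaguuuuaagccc

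mmu-miR-20a-5p: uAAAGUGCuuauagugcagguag

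mmu-miR-19b-3p: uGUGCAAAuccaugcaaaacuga

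mmu-miR-302c-3p: aAGUGCUUccauguuucagugg

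mmu-let-7a-5p: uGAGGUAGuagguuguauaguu

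The miR-294 and miR-290a seeds share the match core GCACTT, here the stem cell core, which belongs to the microRNA group most characteristic of embryonic stem cells. The miR-20a seed, of the miR-17 family, has the core CACTTT, and the miR-19b seed has the core TTGCAC. The miR-302c and let-7a seeds are not among the 50 listed, but their 8mer matches AAGCACTA and CTACCTCA are among 966 further 8mers of the same table.

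Listed matches beside unmatched clusters are shown next, because they bear most directly on what the clusters lack. Each was read from the site table on the mRNA strand (mm9), with the match in capitals and adjoining bases, where other table entries gave them, in lower case.

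Tet1, chr10:62274633-62274640, minus strand: AGCACTTt

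Mcl1, chr3:95466565-95466577, plus strand: AGCACTTtatgta

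Dcun1d3, chr7:127000918-127000925, minus strand: gGCACTTT

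Zfp91, chr19:12843769-12843778, minus strand: tttGCACTTT

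Rcan3, chr4:134972148-134972156, minus strand: gGCACTTTA

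N4bp2l2, chr5:151438903-151438910, minus strand: AGCACTTA

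Tfcp2l1, chr1:120577338-120577345, plus strand: CAGCAGGA

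The first 6 hold the stem cell core, and those of Dcun1d3, Zfp91 and Rcan3 are miR-17 family matches that contain it. With the adjoining bases some hold another listed match too. These include the miR-19 match TTTGCAC in Zfp91 and the miR-17 family match GCACTTT in Tet1 and Mcl1. In Tet1, which encodes a dioxygenase of 5-methylcytosine, the match lay 3 nt past the 3′ edge of its cluster and had 34 reads. In Mcl1, an anti-apoptotic relative of Bcl2, it lay 13 nt past the 3′ edge and had 49 reads. The Dcun1d3 and Rcan3 matches lay 12 and 15 nt before the 5′ edge with 5 and 29 reads, and those of Zfp91 and N4bp2l2 lay 6 and 2 nt before it with 14 and 5 reads. The Tfcp2l1 match lay 6 nt before the 5′ edge and had 4 reads, fewer than the 46 of its cluster. Apart from Tfcp2l1, these examples were picked for the stem cell core, after distances and reads were known.

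Absence of a match has a meaning only where the site table looked. The table listed 1641948 entries in 15271 genes, and 794 unmatched clusters had an entry of some kind within 200 nt on their strand. The other 303 (27.6%) had none within that distance, so their lack of a match cannot be told apart from a lack of table entries. In 86 of these 303 clusters the gene was absent from the table. In the other 217 the gene was listed, and 195 of them lay past its last entry, at a median of 6910 nt beyond it. Of the remainder, 3 lay before the first entry and 19 between entries. The 794 clusters are called searched clusters and the 303 unsearched clusters. The reach of 200 nt was set after the distances were seen, and 786 clusters had an entry within 100 nt and 808 within 500 nt. Of the 3501 3′ UTR clusters with an entry in reach, 22.7% (21.3 to 24.1) held no listed match.

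**Figure D1:**
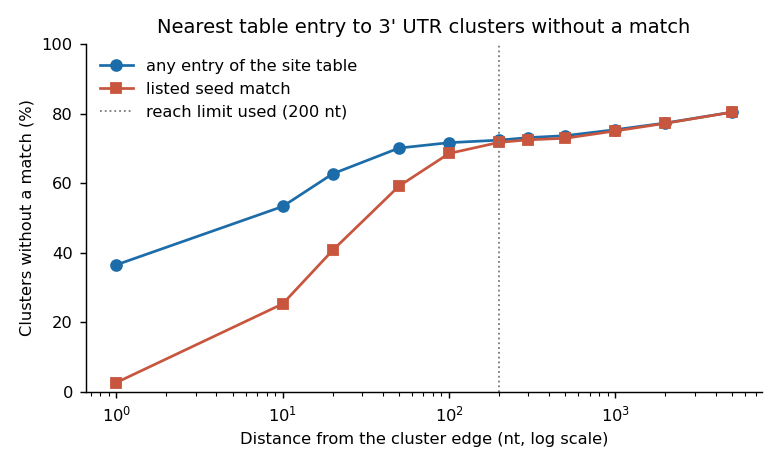
Share of the 1097 unmatched clusters (vertical axis, percent) with a table entry of any kind, or a listed match, within a given distance of the cluster edge (horizontal axis, nt, log scale). A listed match lay within 20 nt of 40.7% of the clusters and within 50 nt of 59.2%, and both curves are nearly flat beyond 200 nt, where 72.4% had an entry.

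At the edge of the rule, 30 unmatched clusters had a listed match directly beside them, and 40 matched clusters were overlapped by a match in 1 nt alone. The widest unmatched cluster was in Csnk1a1, at 168 nt, and the next was 141 nt wide. Of the 2 clusters over the width limit, the narrower, 254 nt, was in Fgf4 (305 tagged and 25 untagged reads), and the other, 828 nt, was in Txnip (234 and 14 reads).

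Unmatched clusters carried few reads. The median was 6 tagged reads (95% interval 6 to 6, from the binomial order of the clusters), the middle 50% ran from 5 to 9 and the highest was 82. Of all 1097, 387 (35.3%) sat at exactly 5 reads, the smallest number in the cluster list. Searched clusters had a median of 6 reads and a maximum of 55, unsearched clusters a median of 7 (7 to 8) and a maximum of 82, and matched clusters a median of 7 (7 to 8) and a maximum of 94. At least 20 reads were found in 1.51% of searched clusters (0.783 to 2.63), in 7.59% of unsearched clusters (4.87 to 11.2) and in 9.97% of matched clusters (8.87 to 11.2). The unsearched clusters thus had the read distribution nearer to that of matched clusters. These intervals cover counting of clusters alone. Clusters can overlap, reads are not known to be independent molecules, and no interval covers a second culture.

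The authors' binomial p compares tagged with untagged reads, and every cluster listed has p under 0.05. It was under 0.01 in 475 unmatched clusters (43.3%, 40.3 to 46.3), against a background of 49.6% over all 6211 clusters. The share was 38.5% (35.1 to 42.0) in searched clusters, 55.8% (49.99 to 61.5) in unsearched clusters and 60.1% (58.2 to 61.9) in matched clusters. Below 0.001 the shares were 11.1%, 24.8% and 28.2%, with a background of 20.4%. Searched clusters were below the background at both levels. Unsearched clusters were above it at 0.01, while at 0.001 their interval included it.

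Few untagged reads are a condition of the authors' threshold, so the following values are descriptions of selected clusters. Tagged and untagged reads summed to 8816 and 91 over unmatched clusters and to 29111 and 410 over matched clusters, with reads in overlapping clusters counted in each. With 5 or 6 tagged reads a cluster passes p under 0.05 only with 0 untagged reads, so the share without an untagged read was taken over clusters of at least 7 tagged reads. It was 89.4% (286 of 320, 85.5 to 92.5) in searched clusters, 79.1% (144 of 182, 72.5 to 84.8) in unsearched clusters and 80.0% (1356 of 1694, 78.1 to 81.9) in matched clusters, with a background of 74.3% over all clusters of that size. The number of untagged reads that the threshold allows rises with tagged reads, which were fewer in searched clusters, so these shares are not compared further. Untagged reads were worked back from the log2 enrichment, and no source used here states how that library was scaled.

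Width moved with both the choice of clusters and their reads. Median width was 37 nt in searched clusters, 44 nt in unsearched clusters and 46 nt in matched clusters. Among clusters in reach of the table, 38.1% (259 of 679) of those 24 to 30 nt wide held no match, 20.8% (206 of 989) of those 41 to 50 nt wide, and 5.88% (35 of 595) of those 61 to 200 nt wide. At equal width the read medians were close. They were 5 and 5 reads for searched and matched clusters at 24 to 30 nt and again at 31 to 40 nt, 7 and 7 at 41 to 50 nt, 10 and 11 at 51 to 60 nt, and 14 and 18 at 61 to 200 nt. The share with p under 0.01 was 24.3% (19.2 to 30.02) against 20.5% (16.7 to 24.7) in the narrowest band and 56.3% (49.2 to 63.2) against 63.1% (59.6 to 66.5) at 41 to 50 nt. In those bands the intervals overlapped.

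**Figure D2:**
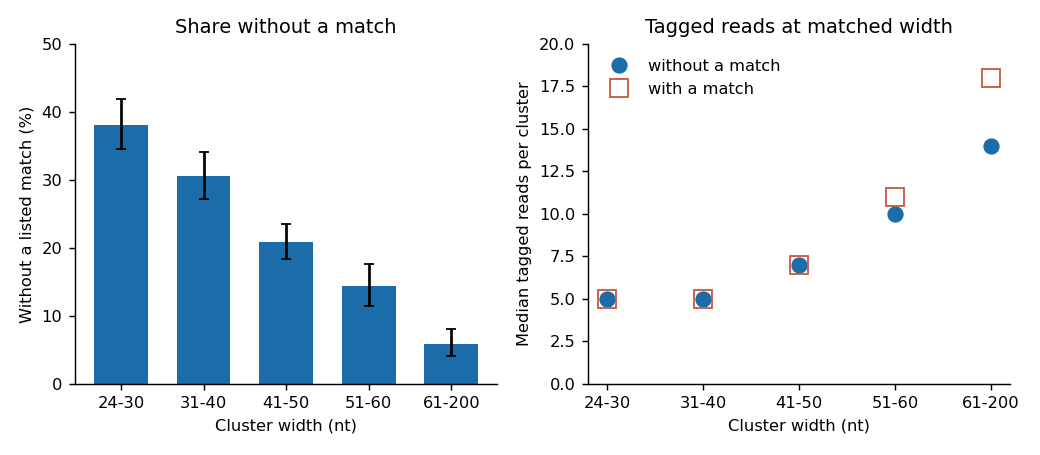
Left, share of clusters in reach of the site table that held no listed match (percent, bars from 0, with 95% exact binomial intervals) by cluster width in nt, falling from 38.1% to 5.88%. Right, median tagged reads per cluster in the same width bands for clusters without and with a match, which were equal up to 50 nt and 14 against 18 reads in the widest band.

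Many searched clusters lay close to a listed match. Of 794, 278 had a match within 10 nt, 447 (56.3%) within 20 nt and 649 within 50 nt. Per 1000 nt of flank, both sides together, listed matches numbered 22.0 at 1 to 10 nt from the cluster edge, 21.6 at 11 to 20 nt, 17.5 at 21 to 50 nt and 12.5 at 201 to 300 nt. At 1 to 10 nt, 174 matches lay on the 5′ side and 176 on the 3′ side. The stem cell core fell more steeply with distance, from 3.15 and 3.34 per 1000 nt in the first 2 bands to 1.78 at 21 to 50 nt and 0.346 at 201 to 300 nt. Searched clusters have an entry within 200 nt by choice, which raises densities inside that distance. Flank that ran past the 3′ UTR was counted in full, which lowers the far densities. Part of each fall with distance is thus set by the method.

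**Figure D3:**
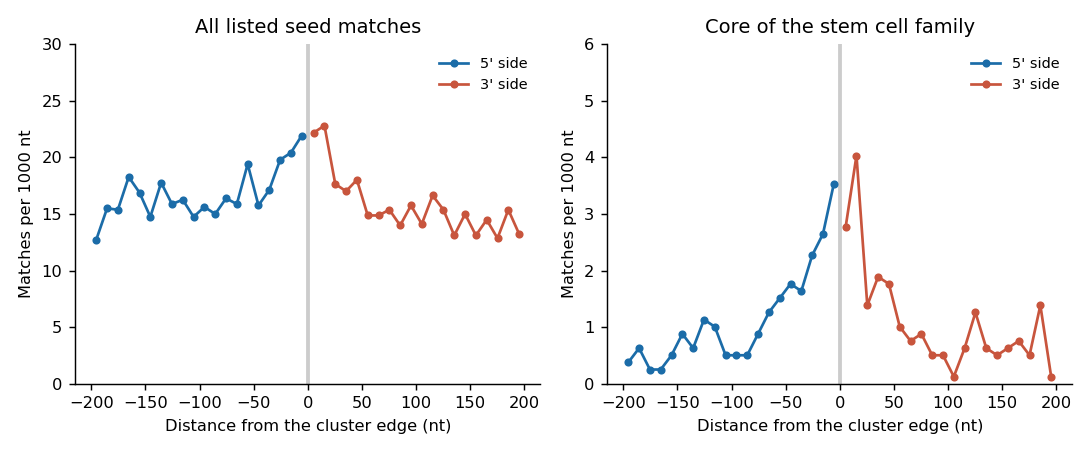
Listed seed matches per 1000 nt (vertical axes) by distance from the edge of the 794 searched clusters (horizontal axes, nt, 5′ side negative), for all listed matches (left) and for the core GCACTT (right). All matches stood near 22 per 1000 nt beside the clusters, and the stem cell core stood highest within 20 nt on both sides.

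By family, the stem cell core made up 87 of 630 distinct matches 1 to 20 nt from a searched cluster (13.8%) and 165 of 4509 matches 51 to 300 nt away (3.66%), a ratio of 3.77. Inside matched clusters it made up 17.2% of 5090 matches. The miR-17 core CACTTT had shares of 9.68% near and 3.53% far, and the miR-19 core TTGCAC had 6.03% and 1.84%. For the core CTGTGA of miR-27 the shares were 3.33% and 3.19%, and for TTGTAT of miR-381-3p they were 4.44% and 3.35%. Of all 48 families, 35 had a lower share near than far, among them the core GCTGCT of miR-15 and miR-16 with 1.75% and 3.08%, and TGCTGC of miR-103 and miR-107 with 2.38% and 3.33%. Inside matched clusters these had shares of 4.40% and 4.48%. Shares depend on each other, so a rise of the stem cell, miR-17 and miR-19 cores lowers the rest. A lower share near than far need not be a lower number of matches per nt. Searched clusters with the stem cell core within 20 nt numbered 101. Match types followed the same gradient. Near matches were 13.8% 8mers and 29.5% 7mers, far matches 8.76% and 21.5%, and matches inside matched clusters 13.4% and 31.1%. The PhastCons conservation score, which runs from 0 to 1, had a median of 0.483 (0.299 to 0.690) at near matches, 0.237 (0.192 to 0.293) at far matches and 0.761 (0.701 to 0.822) inside matched clusters. At least 1 read covered 93.7% of near matches and 57.4% of far ones.

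Much of this neighbourhood was shared with matched clusters. Of the 794 searched clusters, 188 overlapped a matched cluster and 326 (41.1%) lay within 50 nt of one. Around these 326, listed matches numbered 32.0 per 1000 nt at 1 to 20 nt and 15.1 at 51 to 300 nt. Around the other 468 the densities were 14.7 and 13.5. Since a matched cluster holds a listed match by definition, the split itself raises the near density of the first set and lowers that of the second. The share of the stem cell core was higher close by in both sets. Around the 468 it was 10.1% (28 of 276, 6.85 to 14.3) at 1 to 20 nt and 3.29% (104 of 3163, 2.69 to 3.97) at 51 to 300 nt, and around the 326 it was 18.0% (14.4 to 22.0) and 4.78% (3.97 to 5.70). The Tet1 cluster shown above is of the overlapping kind.

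Closeness to a match went with no higher read number. Searched clusters with a match within 20 nt (447) and without one (347) both had a median of 6 reads, and p was under 0.01 in 37.4% (32.9 to 42.0) and 40.1% (34.9 to 45.4). Of the 347, 145 had no match within 50 nt, and their median was 6 reads as well.

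Sorted into exclusive sets, the 1097 clusters comprised 303 unsearched (27.6%), 188 that overlapped a matched cluster (17.1%), 288 others with a listed match within 20 nt (26.3%), 140 with a further 8mer inside as their sole feature (12.8%) and 178 with none of these (16.2%). The last set had a median of 6 reads and a maximum of 20, with 1272 tagged and 12 untagged reads in sum. Of its 70 clusters with at least 7 reads, 63 (90%) had no untagged read. Its clusters with the lowest p, looked up after their values were seen, included Ptpn4 (18 and 0 reads, chr1:121556250-121556308), Wiz (17 and 0 reads) and Top2a (16 and 0 reads). These genes encode a phosphatase, a zinc finger partner of histone methyltransferases and a DNA topoisomerase. Their nearest table entries of any kind lay 42, 156 and 79 nt away, while 769 of the 794 searched clusters had an entry within 50 nt. For Wiz and Top2a a lack of matches thus cannot be told apart from a lack of table entries.

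The 966 further 8mers extend none of the listed 7mers, and 824 of them equal the seed match (pairing to bases 2 to 8, then A) of at least 1 of 1679 RefSeq mature mouse microRNAs. A further 8mer overlapped 369 searched clusters (46.5%, 43.0 to 50.01) and 1664 matched clusters (61.5%, 59.6 to 63.3). Some further 8mers form a listed match with adjoining bases, and a cluster over such a match counts as matched. The rule can thus lower the first share and raise the second, here and within width bands. Within width bands the shares were 39.4% (33.4 to 45.6) against 48.6% (43.7 to 53.5) at 24 to 30 nt and 50.5% (43.5 to 57.5) against 59.5% (56.0 to 63.0) at 41 to 50 nt, where the intervals overlapped, and 51.4% (34.0 to 68.6) against 76.3% (72.5 to 79.7) at 61 to 200 nt, where they did not. The sites were spread thinly. Of 335 8mers found in any unmatched cluster, 216 occurred in a single cluster and 17 in 4 or more. The 8mers present in the most unmatched clusters are printed to show which of these 966 recur where the listed seeds are missing. Cluster sequences were not read, so other motifs or seeds were not searched.

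Match of no RefSeq mature microRNA, 7 clusters: TGTATATA

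Match of mmu-miR-466i-3p, 6 clusters: GTGTGTAA

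Match of mmu-miR-3098-3p, 6 clusters: CAGCAGAA

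Match of mmu-miR-302c-3p, 5 clusters: AAGCACTA

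Match of mmu-miR-690, 5 clusters: TAGCCTTA

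Match of mmu-let-7a-5p, 0 clusters: CTACCTCA

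TGTATATA, whose letters fit the response element of Pumilio proteins, lay at 5 distinct places in 7 unmatched clusters. It lay in 19 matched clusters too, so that per 1000 of its 3′ UTR sites it was present in 5.43 unmatched and 14.7 matched clusters. Such rates per site do not allow for the size of the sets, 1097 unmatched and 2707 matched clusters, and are not rates per cluster. In Esrrb, an orphan nuclear receptor of the pluripotency network, 1 copy at chr12:87862425-87862432 with 15 reads and a conservation score of 1 was shared by 3 overlapping clusters. In Tet1 the copy at chr10:62274649-62274656 had 40 reads and a score of 0.994. GTGTGTAA and CAGCAGAA were present in 12 and 9.04 unmatched clusters per 1000 sites, against 10 and 9.04 matched ones. Overlapping clusters shared copies here too. The 6 unmatched clusters of each held 5 and 4 distinct sites, and their matched clusters held 3 and 6. AAGCACTA, which is shifted by 1 base from the miR-294 match, was present in 5 unmatched and 5 matched clusters, at 4 sites in each set. TAGCCTTA was in 5 and 2 clusters. TGCCCCCA and TCCTCTGA were in 5 clusters each, and GAACCACA, CCTCCCTA and TCTCTCTA in 4 each, with 3 distinct sites for CCTCCCTA. The let-7 match was in 0 unmatched and 5 matched clusters, of 449 sites in 3′ UTRs, and the miR-101 match GTACTGTA in 2 and 9. After a T, the let-7 match holds the listed core TCTACC, and TGTATATA holds TTGTAT. The rule for unmatched clusters can thus lower their counts. At these counts no order among the 8mers can be read.

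Conservation at further 8mers was intermediate. The median score was 0.341 (0.208 to 0.544) for 489 sites in unmatched clusters, 0.485 (0.414 to 0.572) for 2602 sites in matched clusters and 0.119 (0.111 to 0.130) for 24431 sites outside clusters in the same genes' 3′ UTRs. The first interval overlapped the second and lay above the third.

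Crosslink peaks gave a positional view. The authors list the position or positions with most crosslinks in a cluster and their number. A peak of at least 2 crosslinks was present in 57.9% (54.4 to 61.4) of searched, 75.2% (70.0 to 80.0) of unsearched and 74.2% (72.5 to 75.9) of matched clusters. Searched clusters had fewer reads, and these shares were not compared at equal reads. Where a single position was given, the peak over tagged reads had a median of 33.3% in searched, unsearched and matched clusters alike. A single peak position was given for 495 unmatched clusters, at a median of 11 nt from the 5′ end. In 1494 matched clusters with a single position, listed matches numbered 80.1 per 100 clusters in the 12 nt from the crosslink onward (0 to 11 nt), 43.2 in the 12 nt before it and 20.6 at 49 to 60 nt before it. That matched clusters hold matches was set by the choice of clusters, as was their near absence in unmatched ones (2.03 per 100 clusters at 0 to 11 nt). Further 8mers were not named in that choice but were not free of it. Some form a listed match with adjoining bases, as CACTTACA does after a G, and a cluster over such a match counts as matched. Around the 345 peaks of searched clusters further 8mers numbered 16.8 per 100 clusters at 0 to 11 nt. This lay within their range of 16.5 to 23.8 over the other windows shown, so that no maximum at the crosslink was detected. Since the choice removes some such sites near the peak, this profile cannot decide whether further 8mers gather there.

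**Figure D4:**
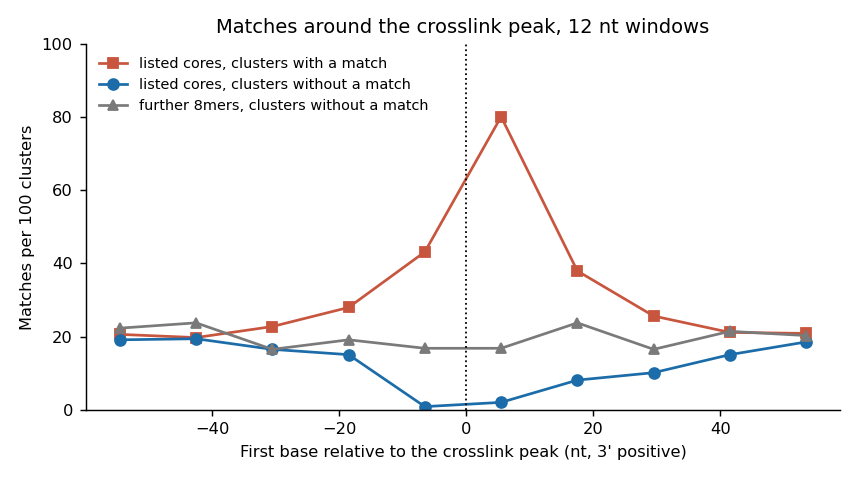
Matches per 100 clusters in 12 nt windows (vertical axis) by position of their first base relative to the crosslink peak (horizontal axis, nt, 3′ positive), for listed matches in 1494 matched clusters and for listed matches and further 8mers in 345 searched clusters. Listed matches in matched clusters rose to 80.1 just 3′ of the peak, while further 8mers in searched clusters stood at 16.8 there.

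Among the 10 unmatched clusters with the lowest p, 6 were unsearched. The lowest p belonged to Csnk1a1, which encodes casein kinase 1 alpha of the β-catenin destruction complex, with 82 tagged reads and 1 untagged read (chr18:61749090-61749257, p = 8.6854e-24 by the authors). Gigyf1, an adaptor of translational repression by 4EHP, had 54 reads and 1 untagged read (chr5:137968896-137968975). Peg10, an imprinted gene derived from a retrotransposon, had 49 reads and 0 untagged reads (chr6:4709002-4709105), at least 16.3-fold higher against a floor of 3 untagged reads per cluster. Shoc2, a scaffold of RAS signalling, had 42 and 0 reads (at least 14-fold higher), Pja2, a RING ubiquitin ligase, 39 and 0 (at least 13-fold higher), and the zinc finger gene Zfp180 43 and 1. These 6 stood high in the tagged line, but the table holds no entry near them.

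The 4 searched clusters among the 10 were in Tfcp2l1, Fgf4, Dcun1d3 and Mcl1. Tfcp2l1, a transcription factor of naive pluripotency, had 46 and 0 reads (chr1:120577351-120577428, at least 15.3-fold higher). Fgf4, the growth factor by which stem cells activate ERK signalling, had 41 reads and 1 untagged read (chr7:152050563-152050676), and its nearest listed match, TGAGCC, lay 93 nt to the 3′ side with 351 reads. Dcun1d3, a regulator of cullin neddylation, had the most reads of any searched cluster, 55 against 6 untagged (chr7:127000820-127000906, 9.17-fold higher). Mcl1 had 35 and 0 reads (chr3:95466502-95466552, at least 11.7-fold higher). In each of the 4 a further 8mer lay inside, for example ATCCTTGA in Mcl1 and CCCCAAAA in Dcun1d3.

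The unmatched clusters fell in 691 genes and covered 943 distinct regions, since 275 (25.1%) overlapped another unmatched cluster. In 483 genes there was 1 such cluster and in 23 genes 5 or more. A matched cluster in the same gene accompanied 593 of 794 searched clusters (74.7%, 71.5 to 77.7) and 17 of 303 unsearched ones (5.61%, 3.30 to 8.83). Only a cluster overlapped by a table entry can be matched. Of the 303, 86 lay in genes without entries and 195 past the last entry of their gene. The low second share is thus largely set by the definitions. Of the 10 genes with the most unmatched clusters, 6 had unsearched ones alone and 4 searched ones alone.

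Gigyf1 led with 23 unsearched clusters over 2174 nt, with 5 to 54 tagged reads each and 236 tagged and 6 untagged reads in sum, and is not in the site table. Csnk1a1, the zinc finger gene Zfp266 and Fnbp1, a membrane-bending protein of endocytosis, had 8 unsearched clusters each, with sums of 131, 72 and 62 tagged reads. Whsc1l1, a histone methyltransferase, had 7, and Mat2b, a subunit of methionine adenosyltransferase, had 6 with 75 and 0 reads. None of these 6 genes had a matched cluster, but a matched cluster needs a table entry, and the table had none near these clusters.

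The 4 genes of the 10 with searched clusters carried matched ones as well. Fgf4 had 7 unmatched (80 and 1 reads) and 7 matched clusters, and Tfcp2l1 had 7 (78 and 0 reads) and 3, with a listed match within 20 nt of 5 of the 7. Slc2a3, a neuronal-type glucose transporter, had 7 and 10, and Cdkn1a, the cell cycle inhibitor p21, had 7 and 9. The tagged reads of the 7 in Cdkn1a were 5, 10, 9, 7, 5, 6 and 5, with 1 untagged read in each of the clusters with 10 and 9. Among genes tied at 6 clusters, Scd2, a stearoyl-CoA desaturase, had 6 and 4, Enc1, a kelch protein, had 6 and 3, and Cep55, Rbm26 and Dlc1 had unsearched clusters alone.

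**Figure D5:**
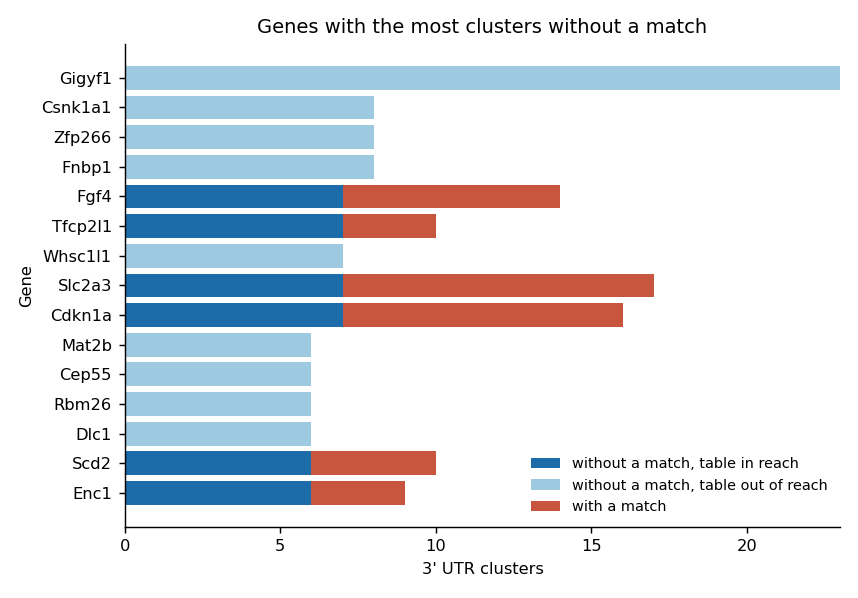
Number of 3′ UTR clusters (horizontal axis) in the 15 genes with the most unmatched clusters, split into unmatched clusters in reach of the table, unmatched clusters out of its reach, and matched clusters. Gigyf1 had 23 out of reach, and the genes plotted with clusters in reach, such as Fgf4 with 7 and 7, also had matched ones.

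Gene lists were read against the share of all 15271 listed genes with an unmatched cluster, 4.27%, or 7.52% of genes at 10 FPKM or more. For matched clusters the shares were 9.8% and 17%. Since the shares moved with expression, list medians in FPKM are given beside the counts. The lists were chosen with earlier results of these data known.

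Pluripotency factors had unmatched clusters in 8 of 25 genes and matched ones in 9, at a median of 82.2 FPKM. All 27 unmatched clusters of this list were searched, with 266 tagged and 2 untagged reads. Beside Fgf4 and Tfcp2l1, Esrrb had 5 clusters with 6, 8, 15, 10 and 8 tagged reads, 0 untagged reads and no matched cluster, and none had a listed match within 20 nt. Sox2, the partner of Oct4, had 2 clusters with 13 and 5 reads and no matched cluster. Nanog, not named by the rule, had 2 with 5 and 8 reads beside 3 matched ones. Dppa5a, Pou5f1 and Zfp42, listed at 1655, 609 and 494 FPKM, had no unmatched cluster.

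Signalling genes of the FGF, LIF, Nodal and Wnt pathways had unmatched clusters in 10 of 26 genes and matched ones in 13 (median 24.2 FPKM). Csnk1a1, Fgf4 and the LIF receptor gene Lifr led, and Lifr had 5 unsearched clusters with 55 tagged reads and 1 untagged read although it was listed at 0.301 FPKM. Pim3, a kinase gene downstream of Stat3, had 4 unmatched (34 and 0 reads) and 11 matched clusters. Chromatin and DNA methylation regulators had unmatched clusters in 9 of 28 genes and matched ones in 12 (median 35.1 FPKM). The unmatched ones included those of Mtf2 (4 clusters, 27 and 0 reads), Aebp2 (3, 25 and 0) and Tet2 (3, 22 and 0), beside 2 in Tet1 with 25 and 5 reads. Mtf2 and Aebp2 encode accessory subunits of Polycomb complex PRC2.

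Cell cycle inhibitors had unmatched clusters in 5 of 16 genes and matched ones in 7 (median 3.65 FPKM). After Cdkn1a came Lats1, a Hippo kinase gene, with 5 unsearched clusters (53 and 0 reads), Btg2 with 2 and Cdkn1b, which encodes p27, with 1 of 14 reads and no matched cluster. Textbook let-7 targets had unmatched clusters in 8 of 22 genes and matched ones in 6 (median 23.9 FPKM). Rrm2, a ribonucleotide reductase subunit, led with 3 unmatched clusters (25 and 0 reads). The let-7 8mer lay in 0 unmatched clusters, but shorter let-7 matches are not among the listed ones and were not looked for. Of the 8 genes, 6 had searched clusters. Whether these clusters hold let-7 sites thus cannot be told. The microRNA pathway and mRNA decay list had unmatched clusters in 6 of 28 genes and matched ones in 13 (median 17.5 FPKM). RNA-binding proteins of 3′ UTRs had unmatched clusters in 5 of 21 genes and matched ones in 8 (median 26.5 FPKM). Genes of these lists with unmatched clusters had 1 each, except Cnot6, a deadenylase gene with 2. Dicer1, at 8 reads, and Lin28b, at 6 reads, had 1 unsearched cluster each.

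Immediate early genes had unmatched clusters in 4 of 21 genes and matched ones in 4 (median 7.80 FPKM). Mcl1 had 3 unmatched clusters (12, 35 and 6 reads), Btg2 had 2, and Fos and Ier2 had 1 each. Housekeeping genes had unmatched clusters in 4 of 19 genes and matched ones in 7 (median 306 FPKM). Actb had 4 unmatched clusters (29 and 0 reads), of which 2 were searched. Markers of differentiated lineages had unmatched clusters in 0 of 8 genes (upper limit 36.9%). Fibroblast markers, which would show feeder cells, had them in 0 of 2 (upper limit 84.2%), with Vim listed at 45.0 FPKM and Thy1 at 1.89. Vim had 1 matched cluster with 7 reads.

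Genes with clusters were listed at higher expression than the rest. The median was 19.8 FPKM (13.2 to 23.1) for 169 genes with searched unmatched clusters and no matched one, 17.4 FPKM (15.2 to 21.01) for 374 genes with both and 13.4 FPKM (12.1 to 14.7) for 1114 genes with matched clusters alone. All 15271 genes had a median of 4.59 FPKM. The first interval overlapped each of the other two, and the second lay above the third.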

How the data were processed

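The authors' cluster list gives peak height, a signal in whole reads, and 2 text columns of other type joining reads, enrichment (log2) against the control line and p, or crosslink positions and heights, per the file headers. The authors' site table gives coverage in rpm, expression in FPKM, PhastCons conservation as a fraction and a log2 coverage deposited by the authors that was not used. Bowtie, TopHat, mm9 and NCBIM37 are named per the submitters' processing notes. No source used here gives their versions, the cluster caller or the origin of the FPKM values.

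All rpm values (100%) were whole multiples of 1.27 within 0.001, so whole reads were recovered. Untagged reads were solved from the authors' log2 enrichment as tagged plus 1 over untagged plus 1, which matched 6211 of 6211 clusters within 0.005. Crosslink offsets were read from the genomic start, since medians of 11 nt on the plus and 33 nt on the minus strand became 11 and 12 nt from the 5′ end. Cluster and site positions are 1-based. Overlaps and distances were computed with Python 3.11.15, numpy 2.4.6, pandas 2.3.3 and scipy 1.17.1, and checked on 2000 simulated clusters (100% recovered). Intervals are exact (Clopper-Pearson) 95% binomial intervals or binomial order intervals of medians, and cover counting error only.

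With 1 library per group no test was possible. Clusters and lists were chosen with earlier results of these data known. By rule, the text names the 10 genes with most unmatched clusters, the 10 clusters with the lowest p and the 10 further 8mers in most of them. Also named by rule are let-7 matches, the width extremes and, in each of 12 lists, up to 4 genes with most unmatched clusters. The rule further set up to 3 genes per list of the highest FPKM with none. Such genes are named only for the pluripotency, lineage and fibroblast lists, so the other lists show genes with clusters alone. Other names were chosen after their values were seen. The result of 1 of these lists is not reported here.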

Additional observations from a re-analysis of the deposited data

How the results depend on the processing

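No paired analysis was possible because each group held 1 library without a replicate number. No result reversed; 33 values stayed within their interval or within 1.5 times the main count and 40 did not. The cause was not tested, except where fewer clusters or wider search by construction change a count.

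The 1097 unmatched clusters (28.8%) became 2042 (53.7%) when 6mers were ignored, 728 (19.1%) when further 8mers counted as matches, 650 (17.1%) and 448 (11.8%) when a match within 20 or 50 nt counted, 475 (22.6%) and 163 (17.6%) at authors' p under 0.01 and 0.001, 609 (31.6%) at widths of 30 to 50 nt and 691 (24.1%) after merging clusters of a gene within 20 nt. The share was 35.1% when the whole match had to lie inside, 21.5% when a match within 10 nt counted, and 27.2% for genes in the table. With an entry within 200, 100 or 500 nt, choices added after seeing the data as was leaving out Gigyf1, it was 22.7%, 22.5% and 23.0%.

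With 6mers ignored, median reads were 7, clusters with p under 0.01 were 47.8%, with a further 8mer 46.3%, and with a match within 20 nt 24.0%. Counting a match within 20 nt gave 7 reads, 47.4% and, for further 8mers, 23.4%. At p under 0.01, median reads were 9, a crosslink peak of at least 2 was in 85.1%, no untagged read in 90.5%, and list genes with an unmatched cluster fell from 53 to 35. At 30 to 50 nt, p under 0.01 was in 34.6% and no untagged read in 92.0%. Searched clusters alone gave 57.9% for the crosslink peak, 46.5% for further 8mers, 38.5% for p under 0.01 and 89.4% for no untagged read. Summed isoform values raised the median of 19.8 to 25.9 FPKM.

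Depth limits what single clusters show: with 5 or 6 tagged reads, a fold change against 0 untagged reads cannot be bounded far above 1.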
